A study of Homo sapiens with 8 samples.

Results

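Transcripts of 9 direct target genes of the transcription factor p53, MDM2, AEN, ZMAT3, GDF15, RRM2B, TP53I3, FDXR, PHLDA3 and BTG2, were measured by RNA-seq in the SK-UT-1 line with and without the inhibitor TP-472. They were chosen by gene symbol as p53 target genes other than CDKN1A, and are 9 of the 60282 genes listed in the count table. SK-UT-1 is an established line from a human uterine leiomyosarcoma (uLMS), a malignant tumor of the smooth muscle of the uterus. The treated cells received 5 µM TP-472, an inhibitor of the bromodomain proteins BRD9 and BRD7, for 48 h, and the control cells received the vehicle DMSO, with 4 replicates in each group. All 8 libraries come from the same line, so nothing here extends to other uLMS cells. The labels number the replicates without saying whether they were separate cultures, though the study speaks of biological replicates for its experiments in general. The p-values measure the spread between these libraries. The total count was 32574716 to 36634184 per vehicle library and 36246466 to 38545695 per TP-472 library.

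p53 is a sequence-specific activator that is stabilized when DNA is damaged or the cell is otherwise stressed. Its target genes stop the cell cycle, start apoptosis, help to repair DNA and adjust metabolism, and MDM2, itself a target, encodes the ubiquitin ligase that removes p53 again. BRD9 is a subunit of the non-canonical BAF chromatin remodeling complex, and BRD7 belongs to the related PBAF complex.

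p53 binds a pair of decamers, and the decamer consensus reads the same on both strands. Promoter windows of RefSeq on GRCh38.p14, from 250 bases before to 50 bases after each gene's start, were found for 7 of the 9 genes (12 windows, since some genes have several starts). An exact decamer was present in 2 of these 7 genes, AEN and FDXR, against 8.06% of 27305 genes with a window. A pair of adjoining decamers with the 4 core C and G bases intact and at most 3 mismatches in 20 bases was present in 4 of the 7, AEN, FDXR, GDF15 and MDM2, against 1.37% of all genes. The stretches of AEN, FDXR and MDM2 are shown. AEN and FDXR were chosen as the genes of the 9 that were called changed, in opposite directions. MDM2 was chosen as a feedback gene of the pathway. Capitals mark the pair of decamers, and each stretch reads 5′ to 3′ on the strand of its gene.
AEN: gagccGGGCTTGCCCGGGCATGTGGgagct
FDXR: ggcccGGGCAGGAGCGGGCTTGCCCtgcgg
MDM2: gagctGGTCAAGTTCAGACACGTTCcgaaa
The AEN stretch lies at chr15:88621301-88621330 on the plus strand, and its pair of decamers begins 34 bases before the RefSeq start. The FDXR stretch lies at chr17:74872991-74873020 on the minus strand, beginning 21 bases before the start. That of MDM2 lies at chr12:68808918-68808947 on the plus strand, beginning 101 and 94 bases before the starts of its inner promoter. AEN and FDXR hold the same exact decamer, GGGCTTGCCC. A match describes these letters only, since binding of p53 was not measured in these samples.

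In vehicle-treated cells the smooth muscle genes ACTA2 and TAGLN were at 160.3 and 32.3 CPM (counts per 1000000 of the TMM-scaled library size), while MYH11, a defining gene of mature smooth muscle, was near 0 at 0.0070 CPM and at 0.236 CPM with TP-472. CD3E of T cells was at 0 in every library, and PTPRC of leukocytes was at 0 in every vehicle library and at a mean of 0.0070 CPM with TP-472. The summed level of 6 smooth muscle genes was 179 to 218 CPM in vehicle and 126 to 138 CPM in TP-472 libraries, and TAGLN fell (log2 fold change −0.67, adjusted p = 0.00397). ACTA2, the most abundant of these, was called lower only without vehicle replicate 1 or 3 (log2 fold change −0.60 each, against −0.55 with all libraries). DES (3.25 and 0.630 CPM in vehicle and TP-472) and LMOD1 (2.53 and 0.702 CPM) passed the filter on low values through the vehicle group alone, so no call is given for them. CNN1 of the same list had a log2 fold change of 0.13 (adjusted p = 0.696). The summed level of 4 epithelial genes was 8.84 to 11.7 CPM and 16.9 to 20.7 CPM, most of it KRT18, which rose (log2 fold change 1.08, adjusted p = 7.26e-04), while EPCAM was under 1 CPM in every library and lower with TP-472 (0.731 and 0.245 CPM). That of 4 leukocyte genes, most of it CD68, was 6.68 to 7.95 CPM and 9.01 to 12.2 CPM. The 3 endothelial genes summed to 0.0554 to 0.144 CPM and 0.414 to 0.581 CPM, with CDH5 at 0 in every vehicle library. The part of these shifts in the results that follow was not tested.

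Vehicle replicate 3 stood apart from the other vehicle libraries and bears on several of the genes. On the first principal component of log2 CPM it scored −94.0, where the other vehicle libraries scored −36.4 to −13.5 and the TP-472 libraries 37.0 to 43.4. Compared with the median of the other vehicle libraries on the log2 scale, its level of GDF15 was 1.80 higher and that of PHLDA3 1.08 higher, and its level of RRM2B differed by −1.21, of ZMAT3 by −0.62 and of MDM2 by −0.55. Its level of FDXR was 0.60 higher, and those of AEN, BTG2 and TP53I3 were higher by at most 0.23.

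The p53 target genes did not move together. Of the 9 genes, 8 passed the filter on low expression (over 1 CPM in at least 4 of the 8 libraries), and GDF15 did not. A gene was called when it differed by more than 1.5-fold at an adjusted p-value below 0.05. Among the 8, AEN rose and FDXR fell by these limits, and 6 did neither. Of all 14073 genes tested by edgeR (quasi-likelihood), 26.9% were called, 12.0% as higher and 14.9% as lower, so 1 of 8 in each direction is near the background. The limit on the p-value alone was passed by 4 of the 8, AEN, BTG2, FDXR and MDM2, and by 36.3% of all genes tested, but MDM2 lost it under most alternatives and BTG2 with replicate number as a block (adjusted p = 0.0507). The median log2 fold change of the 8 genes was 0.077, where all genes tested had −0.026, and 4 of the 8 were above 0 and 4 below. Groups without overlap were seen for 5 of the 8 genes (45.4% of all genes tested), 3 with TP-472 higher (AEN, RRM2B and BTG2; 23.8% of all genes tested) and 2 with TP-472 lower (FDXR and TP53I3; 21.6%). With vehicle replicate 3 left out, AEN and BTG2 were called higher and FDXR lower, where 12.0% and 13.1% of all genes were. In bulk RNA, fewer expressing cells and less RNA per cell cannot be told apart.

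**Figure D1:**
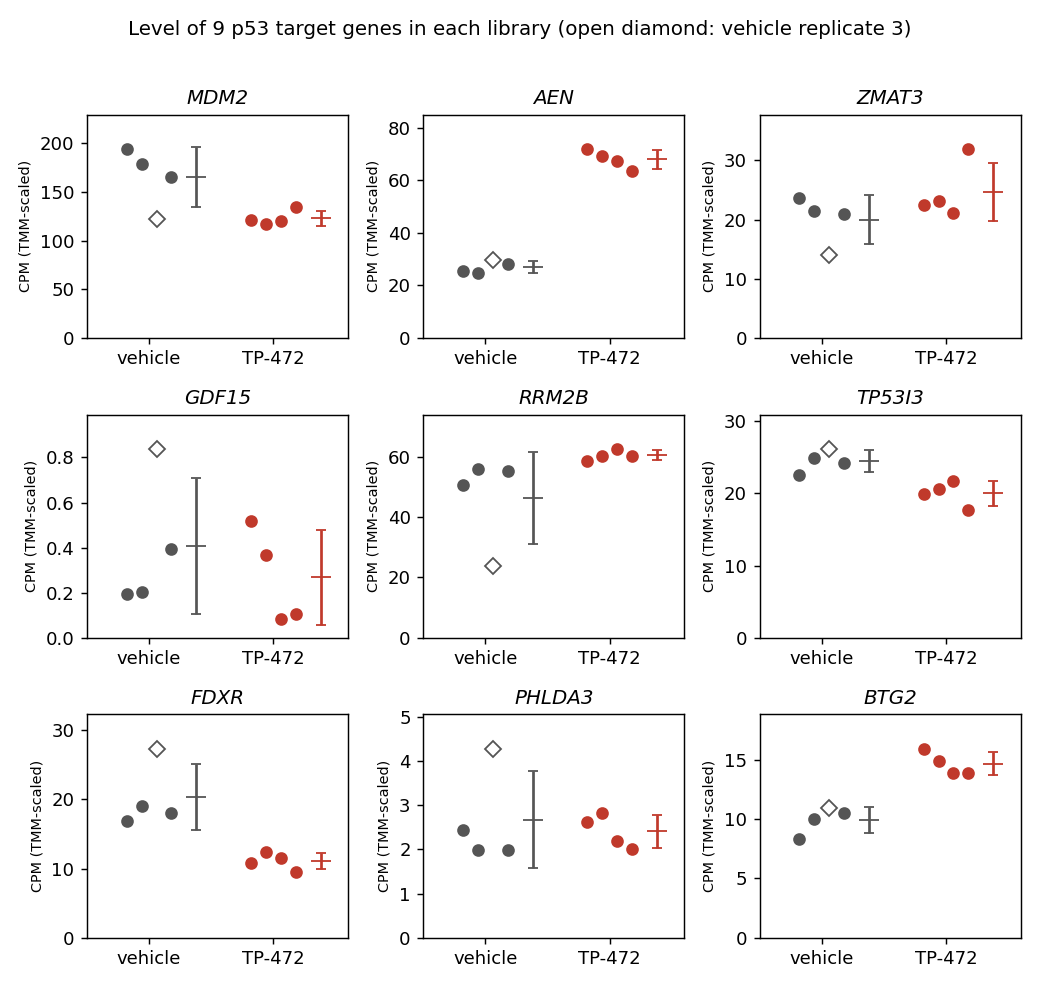
TMM-scaled CPM (vertical axes, starting at 0) of the 9 p53 target genes in each of 4 vehicle (grey) and 4 TP-472 (red) libraries, with the mean and SD of each group beside the points and vehicle replicate 3 as an open diamond. AEN and BTG2 lie higher and FDXR lower in every TP-472 library, while vehicle replicate 3 is the lowest vehicle library for MDM2, ZMAT3 and RRM2B and the highest for the other 6 genes.

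MDM2 (ENSG00000135679.25; chromosome 12 from 68808176 to 68850686), the ubiquitin ligase that degrades p53, was the most abundant of the 9 genes in CPM. Its level was 195, 179, 122 and 165 CPM in vehicle replicates 1 to 4 and 121, 117, 120 and 134 CPM in TP-472 replicates 1 to 4. Vehicle replicate 3 lay among the treated libraries and the other vehicle libraries lay above all of them, so the groups overlapped. The mean was 165 ± 31.1 CPM in vehicle and 123 ± 7.63 CPM with TP-472 (SD, n = 4 each). The log2 fold change, −0.42 ± 0.146 (SE), passed the limit on the adjusted p-value (0.0485) but not that on the fold change, at 1.34-fold lower, and the exact two-sided permutation test gave p = 0.0571. Leaving out vehicle replicate 3 gave −0.55 (adjusted p = 2.36e-04), still under 1.5-fold. Leaving out any other library ended the pass on the p-value (adjusted p = 0.0755 to 0.133), as did replicate number as a block (0.103), limma-voom (0.0622), no filter on low counts (0.0905) and the filterByExpr filter (0.0542).

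Among the genes of apoptosis, AEN (ENSG00000181026.15; chromosome 15 from 88621296 to 88632282), which encodes a nuclease that degrades DNA in apoptotic nuclei, had the largest change of the 8 tested. It was expressed at 25.4, 24.7, 29.7 and 28.0 CPM in vehicle replicates 1 to 4 and at 72.1, 69.3, 67.3 and 63.4 CPM in TP-472 replicates 1 to 4. Every treated library was thus above every control library, and vehicle replicate 3 was near the others. AEN rose 2.52-fold, from 26.9 ± 2.34 CPM to 68.0 ± 3.65 CPM (SD, n = 4 each), or by 1.34 ± 0.104 (SE) on the log2 scale, at an adjusted p of 7.81e-05. Leaving out each library in turn gave 1.29 to 1.38.

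TP53I3 (ENSG00000115129.14; chromosome 2 from 24077433 to 24085861), also called PIG3, encodes a quinone oxidoreductase linked to oxidative stress in apoptosis. Its level was 22.5, 24.9, 26.2 and 24.3 CPM in vehicle replicates 1 to 4 and 19.85, 20.7, 21.8 and 17.7 CPM in TP-472 replicates 1 to 4. All treated libraries were below all control libraries, by a small margin (p = 0.0286 in the exact two-sided permutation test, which cannot go lower with 8 libraries). The difference of −0.29 ± 0.110 (SE) on the log2 scale did not pass edgeR's test (adjusted p = 0.0658). Leaving out vehicle replicate 3 gave −0.26 at an adjusted p of 0.0238, under the limit on the fold change.

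PHLDA3 (ENSG00000174307.7; chromosome 1 from 201464383 to 201469237), an inhibitor of AKT signaling, was low in both groups. Its level was 2.44, 1.98, 4.28 and 1.995 CPM in vehicle replicates 1 to 4 and 2.61, 2.82, 2.19 and 2.01 CPM in TP-472 replicates 1 to 4. The groups overlapped, and vehicle replicate 3 was above every other library. On the log2 scale the difference was −0.15 ± 0.275 (SE, adjusted p = 0.684), and 0.16 with vehicle replicate 3 left out (adjusted p = 0.448).

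Among the genes of growth arrest, BTG2 (ENSG00000159388.6; chromosome 1 from 203305491 to 203309602) encodes an antiproliferative cofactor of mRNA deadenylation and is also known as an immediate early gene. Its level was 8.34, 10.0, 10.9 and 10.5 CPM in vehicle replicates 1 to 4 and 15.97, 14.9, 13.9 and 13.9 CPM in TP-472 replicates 1 to 4. The groups did not overlap. The mean was 9.94 ± 1.13 CPM in vehicle and 14.7 ± 0.982 CPM with TP-472 (SD, n = 4 each), a difference of 0.56 ± 0.127 (SE) on the log2 scale (adjusted p = 0.00972). At 1.48-fold it was just under the limit on the fold change and was not called, and without vehicle replicate 3, TP-472 replicate 3 or TP-472 replicate 4 it was just over it, with log2 fold changes of 0.60 each.

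ZMAT3 (ENSG00000172667.11; chromosome 3 from 179017223 to 179072279), a zinc finger protein that binds RNA and regulates splicing and growth, was at 23.6, 21.4, 13.95 and 20.9 CPM in vehicle replicates 1 to 4. In TP-472 replicates 1 to 4 it was at 22.5, 23.1, 21.1 and 32.0 CPM. The groups overlapped, with vehicle replicate 3 lowest and TP-472 replicate 4 highest. The log2 difference was 0.31 ± 0.195 (SE, adjusted p = 0.240), and 0.16 with vehicle replicate 3 left out (adjusted p = 0.341).

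Of the metabolic and repair genes, FDXR (ENSG00000161513.12; chromosome 17 from 74862497 to 74873031) encodes ferredoxin reductase, which passes electrons to ferredoxin in mitochondria for steroid and iron-sulfur cluster synthesis. Its level was 16.8, 19.03, 27.4 and 18.04 CPM in vehicle replicates 1 to 4 and 10.9, 12.4, 11.5 and 9.56 CPM in TP-472 replicates 1 to 4. The groups did not overlap, and vehicle replicate 3 was the highest library. FDXR fell 1.83-fold, from 20.3 ± 4.78 CPM to 11.1 ± 1.20 CPM (SD, n = 4 each), with a difference of −0.87 ± 0.175 (SE) on the log2 scale at an adjusted p of 0.00585. Tested against a 1.5-fold change (glmTreat of edgeR), it was not called. Leaving out vehicle replicate 3 gave −0.70 (adjusted p = 2.94e-04), and leaving out each library in turn gave −0.96 to −0.70.

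RRM2B (ENSG00000048392.12; chromosome 8) encodes a subunit of ribonucleotide reductase that supplies deoxynucleotides for DNA repair and for mitochondrial DNA. Its level was 50.7, 56.0, 23.8 and 55.1 CPM in vehicle replicates 1 to 4 and 58.5, 60.3, 62.6 and 60.3 CPM in TP-472 replicates 1 to 4. All treated libraries were above all control libraries, vehicle replicate 3 by far the lowest of these. The log2 difference was 0.38 ± 0.238 (SE, adjusted p = 0.231). Leaving out vehicle replicate 3 gave 0.16 at an adjusted p of 0.0421, so the difference was smaller and the spread narrower.

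GDF15 (ENSG00000130513.6; chromosome 19 from 18374731 to 18389176), a secreted cytokine of the TGF-beta superfamily used as a marker of cell stress, was barely detected. The vehicle libraries held 7, 7, 29 and 14 counts of it, in the order of replicates 1 to 4, and the TP-472 libraries 20, 13, 3 and 4. The groups overlapped, and no library reached 1 CPM, with the highest level of 0.840 CPM in vehicle replicate 3. The exact two-sided permutation test on log2 CPM gave p = 0.457, and with no filter on low counts edgeR gave −0.57 ± 0.611 (SE) on the log2 scale (adjusted p = 0.502). With vehicle replicate 3 left out, the mean log2 CPM differed by −0.18 (TP-472 minus vehicle, no model fitted). The difference of −0.57 was smaller than its standard error, and what limited its detection was not tested.

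**Figure D2:**
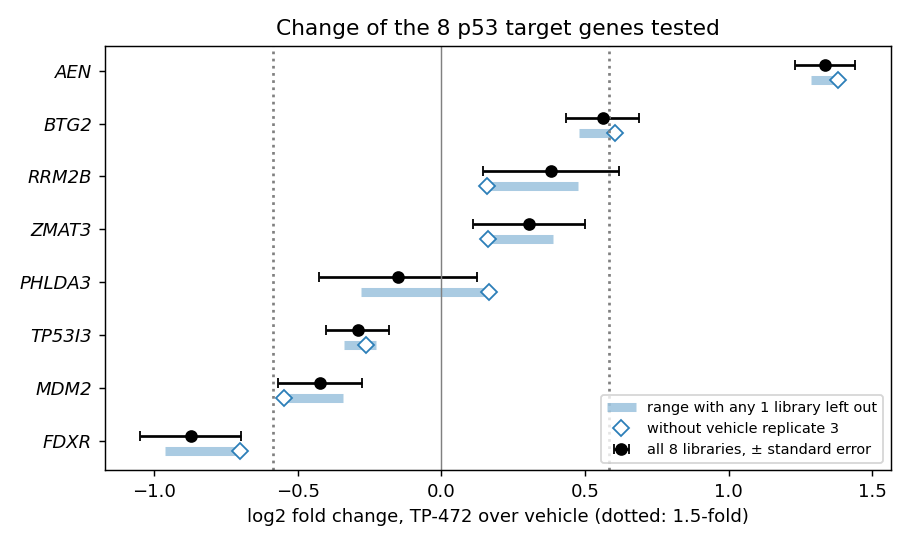
Log2 fold change of TP-472 over vehicle (horizontal axis) of the 8 p53 target genes tested, with all 8 libraries (black points, bars are standard errors), without vehicle replicate 3 (open diamonds) and as the range with any 1 library left out (blue bars). AEN at 1.34 and FDXR at −0.87 lie beyond the dotted lines at 1.5-fold under each of these settings, BTG2 at 0.56 lies at the line, and PHLDA3 changes sign.

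Levels of different genes were compared per kilobase of merged exons of GENCODE release 29, as CPM per kilobase. In vehicle-treated cells the order was MDM2 (12.4 ± 2.34), TP53I3 (10.6 ± 0.668), RRM2B (8.36 ± 2.74), FDXR (5.65 ± 1.33), AEN (4.48 ± 0.389), BTG2 (3.61 ± 0.410), ZMAT3 (2.07 ± 0.433), PHLDA3 (0.853 ± 0.348) and GDF15 (0.195 ± 0.145; SD, n = 4 each). Neighbours from MDM2 down to AEN overlapped in their libraries, and from AEN downward each gene was apart from the next. With TP-472, AEN had the highest level (11.3 ± 0.607 CPM per kilobase), overlapping with RRM2B (10.9 ± 0.307), and FDXR (3.08 ± 0.333) overlapped with ZMAT3 (2.56 ± 0.513). BTG2, at 5.32 ± 0.356 CPM per kilobase, then lay above FDXR without overlap, where in vehicle it lay below.

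A list of 33 other p53 target genes, grouped by role, included CDKN1A. Of 31 that passed the filter, 8 rose, 4 fell and 19 did neither, with a median log2 fold change of 0.11. Without vehicle replicate 3 the counts were also 8 and 4. Against the background of 12.0% and 14.9%, 8 of 31 is a larger and 4 of 31 a similar share, and no test was made over the list, which was written with earlier results of these data known.

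Of the 7 genes of cell cycle arrest, 4 rose and 2 fell, where 12.0% of all genes tested rose and 14.9% fell. CDKN1A, the inhibitor p21 of cyclin-dependent kinases, rose by 2.44 ± 0.135 (SE) on the log2 scale (adjusted p = 2.06e-05), above that of every one of the 9 genes. GADD45A, a growth arrest and DNA damage gene, was at 35.5, 38.0, 61.0 and 41.8 CPM in vehicle replicates 1 to 4 and at 100.2, 105.2, 108.8 and 109.7 CPM in TP-472 replicates 1 to 4, and rose 2.41-fold without overlap (adjusted p = 9.81e-04). The polo-like kinase genes PLK3 and PLK2 rose 2.69-fold and 1.97-fold (adjusted p = 6.61e-04 and 4.15e-04). SFN, which encodes 14-3-3 sigma and restrains entry into mitosis, fell 2.31-fold from 2.77 ± 0.972 to 1.20 ± 0.231 CPM (SD, n = 4 each, adjusted p = 0.0102), near the filter of 1 CPM. Vehicle replicate 3 was its highest library at 4.11 CPM, and leaving it out gave a log2 fold change of −0.96 (adjusted p = 0.00403) against −1.21. E2F7, a repressor of E2F target genes, fell 1.86-fold from 161 ± 14.8 CPM (SD, n = 4, adjusted p = 7.05e-04). CCNG1, at a log2 fold change of −0.36 (adjusted p = 0.336), was called lower only without vehicle replicate 3 (−0.61, adjusted p = 4.59e-04).

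Among 9 tested genes of apoptosis, 2 rose and 2 fell, against the same background of 12.0% and 14.9%. PMAIP1, the BH3-only protein NOXA, rose 1.98-fold to 63.9 ± 4.67 CPM (adjusted p = 0.0192), and TNFRSF10A, a receptor of TRAIL, rose 1.66-fold to 29.2 ± 0.936 CPM (SD, n = 4 each, adjusted p = 0.00136). The call of PMAIP1 ended when vehicle replicate 1 (log2 fold change 0.92), TP-472 replicate 2 (0.96) or TP-472 replicate 3 (0.99) was left out. BBC3, the BH3-only protein PUMA, was at 5.02, 5.92, 13.3 and 5.93 CPM in vehicle replicates 1 to 4 and at 3.96, 4.57, 3.63 and 3.12 CPM in TP-472 replicates 1 to 4. It fell 1.98-fold (adjusted p = 0.0378), and the call ended without vehicle replicate 3 (log2 fold change −0.56, adjusted p = 0.00933), when any 1 of the TP-472 libraries was left out (−1.07 to −0.89) and with replicate number as a block. TP53INP1, a promoter of autophagy and apoptosis, fell 1.80-fold to 20.5 ± 1.82 CPM (SD, n = 4, adjusted p = 0.0110) and also without vehicle replicate 3. BAX, the channel-forming effector of apoptosis, had a log2 fold change of −0.14 (adjusted p = 0.531), or 0.033 without vehicle replicate 3, and the death receptor genes FAS and TNFRSF10B had 0.22 (adjusted p = 0.287) and 0.030 (adjusted p = 0.816). PIDD1 was at 48.8 CPM in vehicle replicate 3 against 13.8 to 15.7 CPM in the other vehicle libraries, and its log2 fold change was −1.14 (adjusted p = 0.0530), or −0.48 without that library. It was called lower without vehicle replicate 2 (−1.33) or 4 (−1.30). EDA2R had no count in 7 of the 8 libraries.

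None of the 3 repair genes was called, and POLH, a polymerase that bypasses ultraviolet lesions, had the largest difference of these (log2 fold change −0.45, adjusted p = 0.00737). As background, 12.0% of all genes tested were called higher and 14.9% lower, so that counts of 0 of 3, 1 of 5 and 1 of 7 in this paragraph are not results about these groups. Of 5 tested genes of metabolism and autophagy, TIGAR, which lowers glycolytic flux, rose 2.22-fold from 12.0 ± 2.29 to 26.5 ± 3.21 CPM (SD, n = 4 each, adjusted p = 0.00140), and the others were not called. SESN1 had the next largest rise of these (log2 fold change 0.51, adjusted p = 0.0428). Of 7 further genes, TRIAP1, a small protein of mitochondrial lipid transfer, rose 2.23-fold from 20.6 ± 6.85 to 45.8 ± 3.74 CPM (SD, n = 4 each, adjusted p = 0.00665). FBXO22 had a log2 fold change of 0.54 (adjusted p = 0.0218) and was called higher only without vehicle replicate 4 (0.59). PPM1D, the phosphatase that switches off p53, was at 26.6, 29.8, 20.03 and 28.9 CPM in vehicle replicates 1 to 4 and at 30.6, 30.4, 31.0 and 29.6 CPM in TP-472 replicates 1 to 4, a difference of 0.21 on the log2 scale (adjusted p = 0.253). MDM2 and PPM1D, negative feedback genes of p53, were without a called change.

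**Figure D3:**
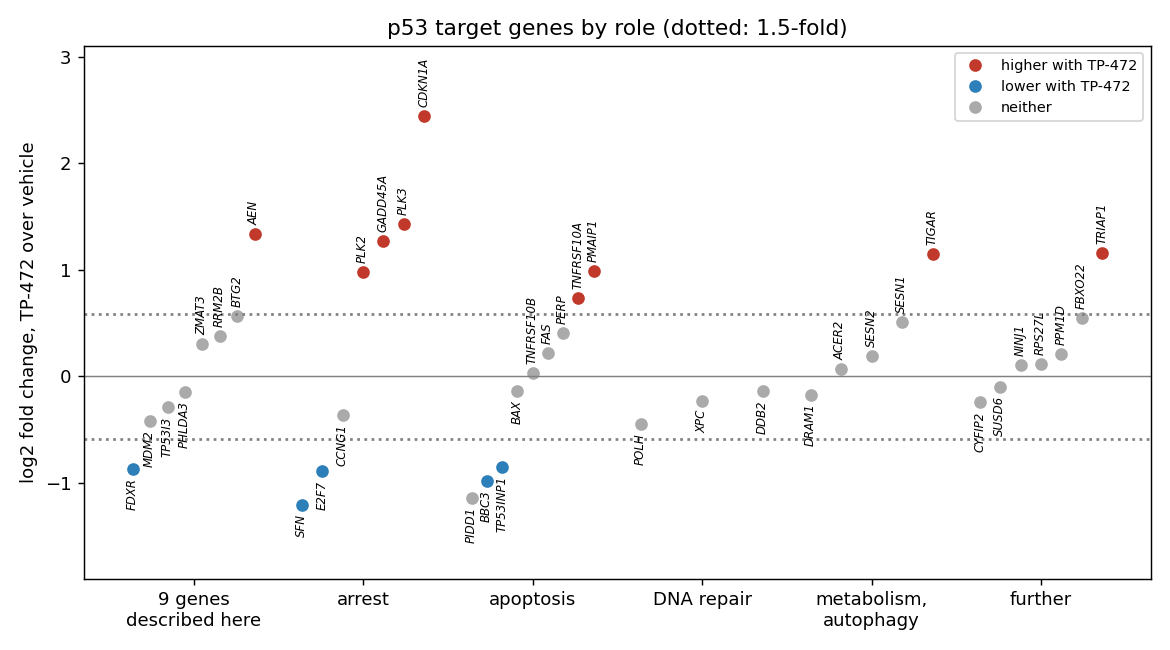
Log2 fold change of TP-472 over vehicle (vertical axis) of the 8 p53 target genes tested and of 31 other p53 target genes by role, 1 point per gene, red where the gene was called higher, blue where called lower and grey where neither. Arrest genes show the widest spread, from SFN at −1.21 to CDKN1A at 2.44, and the 3 repair genes lie between −0.45 and −0.14.

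In a list of 17 regulators and relatives of p53, 16 passed the filter, of which 3 fell and none rose (median log2 fold change −0.30; at an adjusted p-value under 0.05 without a fold limit, 5 fell and 0 rose). A share of 3 in 16 is near the 14.9% of all genes that fell, and 36.3% of all genes passed the p-value alone in either direction. These were MDM4, the partner of MDM2 that blocks the activation domain of p53, the kinase gene HIPK2 and the checkpoint kinase gene CHEK2. MDM4 was at 140, 105, 147 and 113 CPM in vehicle replicates 1 to 4 and at 78.9, 69.5, 68.6 and 95.6 CPM in TP-472 replicates 1 to 4. The groups did not overlap, and MDM4 fell 1.61-fold (adjusted p = 0.00937). HIPK2 fell 2.18-fold from 38.4 ± 14.1 CPM (SD, n = 4, adjusted p = 0.0161), a call that ended without TP-472 replicate 2 (log2 fold change −1.03) or 3 (−1.01). CHEK2 fell 1.51-fold with overlapping groups (adjusted p = 0.0313), and was called in 1 of the 8 fits that each left out 1 library, that without vehicle replicate 3 (log2 fold change −0.76), with −0.62 to −0.50 in the others, and not with replicate number as a block. With vehicle replicate 3 left out 4 of these genes fell, where 13.1% of all genes did. Among the 4 was ATM, the kinase that signals DNA breaks, at −0.60 on the log2 scale (adjusted p = 1.27e-04) against −0.47 with all libraries (adjusted p = 0.0339). TP63 did not pass the filter, and TP73, of the same family, differed by −1.13 on the log2 scale (adjusted p = 0.0885), with vehicle replicate 3 at 14.4 CPM against 3.06 to 5.62 CPM in the other vehicle libraries. Leaving out that library gave −0.42 for TP73 (adjusted p = 0.155), and leaving out vehicle replicate 4 gave −1.38, a called fall. CREBBP, a histone acetyltransferase and coactivator, was at 106, 54.9, 215 and 50.3 CPM in vehicle replicates 1 to 4 and at 45.1, 40.7, 38.2 and 61.1 CPM in TP-472 replicates 1 to 4. The groups overlapped, and its log2 fold change of −1.20 (adjusted p = 0.0580) became −0.61 without vehicle replicate 3, the highest library (adjusted p = 0.0658). It was called lower without vehicle replicate 2 (−1.43) or 4 (−1.44). Of the 16 genes tested, 6 had log2 fold changes above 0, the largest that of RCHY1 (0.60, adjusted p = 0.116), or 0.35 without vehicle replicate 3 (adjusted p = 0.00220). RPL5 and RPL11, ribosomal proteins that can bind MDM2, had log2 fold changes of 0.56 (adjusted p = 0.115) and 0.26 (adjusted p = 0.300).

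**Figure D4:**
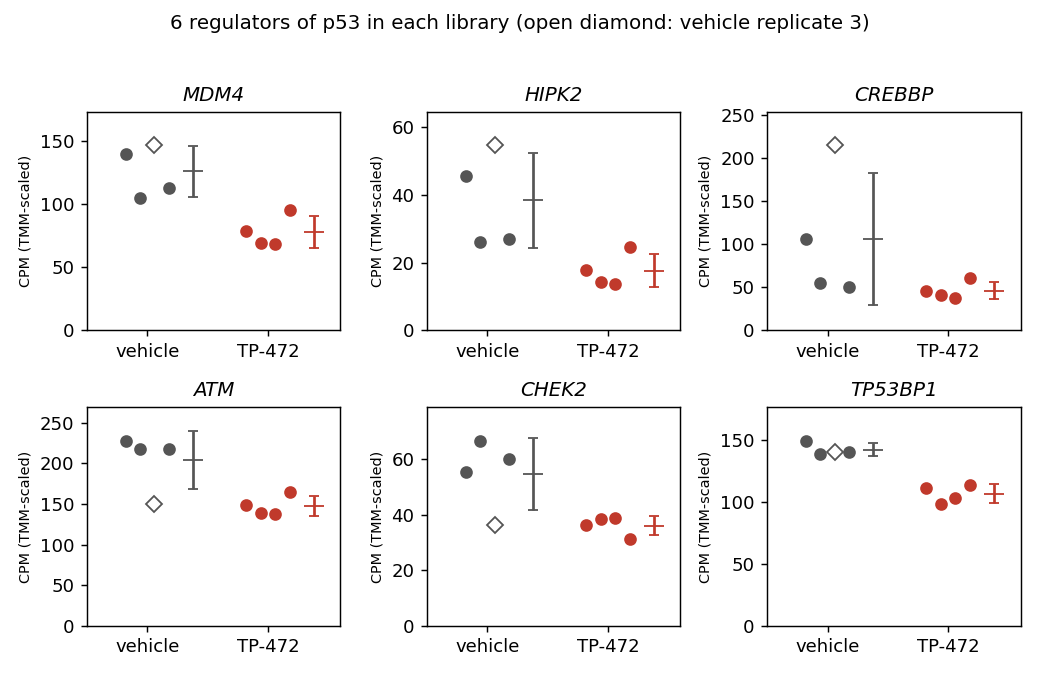
TMM-scaled CPM (vertical axes, starting at 0) of MDM4, HIPK2, CREBBP, ATM, CHEK2 and TP53BP1 in each of 4 vehicle (grey) and 4 TP-472 (red) libraries, with mean and SD beside the points and vehicle replicate 3 as an open diamond. MDM4 is at 68.6 to 95.6 CPM in the TP-472 libraries and at 105 to 147 CPM in the vehicle libraries, and vehicle replicate 3 is the highest vehicle library for MDM4, HIPK2 and CREBBP and the lowest for ATM and CHEK2. The genes shown all had log2 fold changes below 0, while of the 16 regulators tested 10 were below 0 and 6 above.

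p53 also lowers genes of the cell cycle indirectly, through p21 and the DREAM repressor complex. Of 16 such genes, all tested, FOXM1 fell and none rose (median log2 fold change −0.14; at an adjusted p-value under 0.05 without a fold limit, 2 fell and 0 rose). Of all genes tested, 12.0% rose and 14.9% fell, and 36.3% passed the p-value alone. FOXM1, a transcription factor of the G2/M phase, was at 120, 82.9, 208 and 83.0 CPM in vehicle replicates 1 to 4 and at 73.2, 61.9, 62.2 and 71.3 CPM in TP-472 replicates 1 to 4 (log2 fold change −0.88, adjusted p = 0.0379). Its call ended without vehicle replicate 3 (log2 fold change −0.51, adjusted p = 0.00903), when vehicle replicate 1 or any 1 of the TP-472 libraries was left out (−0.92 to −0.83) and with replicate number as a block. CDK1 and CDC25C, which drive entry into mitosis, had log2 fold changes of −0.36 (adjusted p = 0.314) and −0.54 (adjusted p = 0.0243) and were not called. Without vehicle replicate 3 both were called lower, at −0.59 (adjusted p = 3.92e-04) and −0.68 (adjusted p = 3.65e-05). CCNB1, the mitotic cyclin B1, was at 147 to 279 CPM in vehicle and 283 to 344 CPM in TP-472 libraries (log2 fold change 0.42, adjusted p = 0.112).

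Some of the 9 genes also belong to other stress programs, and lists of these were read beside them. GDF15 is known as a target of ATF4 in the integrated stress response, where 1 of 10 genes tested rose and none fell. That gene was ATF3 (3.12-fold, adjusted p = 8.38e-05), and 1 of 10 is near the 12.0% of all genes that rose. Without a fold limit 3 of the 10 rose and 0 fell, where 2418 of all 14073 genes tested rose. ATF4 was at 183 to 254 CPM in vehicle and 271 to 321 CPM in TP-472 libraries (log2 fold change 0.45, adjusted p = 0.0313). DDIT3 had a log2 fold change of 0.56 (adjusted p = 0.0241) and was called higher only without vehicle replicate 3 (0.72) or TP-472 replicate 4 (0.62). Among 9 tested immediate early genes, the class of BTG2, 4 rose, where 12.0% of all genes did, and none fell. The 4 were IER3 (6.25-fold, adjusted p = 5.95e-05), ATF3, DUSP1 (2.88-fold, adjusted p = 1.58e-04) and JUN (2.24-fold, adjusted p = 0.0303). Without a fold limit the counts were also 4 and 0, where 2418 of all 14073 genes rose and 2684 fell. The call of JUN held in 1 of the 8 fits with 1 library left out, that without vehicle replicate 3 (log2 fold change 1.72), and not in the others (0.99 to 1.19). In that library JUN was at 134 CPM against 43.1 to 49.9 CPM in the other vehicle libraries. Without that library, 8 of 9 tested immediate early genes rose and 3 of 10 genes of the integrated stress response, where 12.0% of all genes did.

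The tested genes most like AEN and FDXR over the 8 libraries were taken by the root mean square difference of their centred log2 CPM, among 11078 candidates at a mean of at least 5 CPM. For AEN these were NPTX2 and TMEM158, at differences of 0.11 each, with log2 fold changes of 1.15 and 1.27. For FDXR they were MAGED1 at 0.057 and H2BC15 at 0.061, with log2 fold changes of −0.94 and −0.84.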

How the data were processed

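The authors sequenced strand-specific total RNA libraries from the 8 samples. The deposited values are estimated counts from Salmon 1.4.0 (per the labels, on GRCh38), summed by gene with tximport and GENCODE release 34, neither normalized nor filtered. Here counts were rounded, genes over 1 CPM in at least 4 of 8 libraries were kept and libraries were scaled by TMM. edgeR 4.0.16 (R 4.3.3) was fitted with its quasi-likelihood model, and p-values had Benjamini-Hochberg adjustment over 14073 genes. Single genes also had an exact permutation test over 70 assignments of libraries. Log2 CPM used a prior count of 2. The limits on p and fold are those of the study.

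The members and lists were chosen with earlier results of these data known. Named genes are the 9 members and, of each list, called genes, up to 3 with the largest change in each direction and the most abundant. In some lists fewer than 3 in a direction were named. 1 item of the lists is not reported here and was left out of the counts. BAX, TNFRSF10B, ATM, TP53BP1 and CDK1 were named after their values were seen. Positions come from GENCODE release 29 by gene identifier without version. On simulated data for this comparison (13929 genes), edgeR called 106 of 109 genes changed 4-fold, 48 of 85 changed 2-fold and 10 unchanged genes. Only 194 genes were changed in the simulation and no library was set apart, where 26.9% of genes were called in the real data and vehicle replicate 3 stood apart. These rates therefore need not hold for the real libraries. No library copied another (lowest mean chi-square between libraries 12.8). Alternatives were DESeq2 1.42.0, limma-voom (limma 3.58.1), RLE and total-count scaling, other filters, a replicate block, other thresholds and each library left out.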

Additional observations from a re-analysis of the deposited data

Results flagged for a closer look

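A library was taken as extreme in its group of 4 when its gap to the nearest other library was a larger share of the whole range than Dixon's critical value for 4 samples. Of the 94 genes in the lists, 179 groups whose highest level was at least 1 CPM were examined, and 24 had an extreme library, 22 of them vehicle replicate 3, where chance gives about 1 in 20 groups. The groups share the same libraries and are not independent, so the count is not a test against that rate. Among the 9 p53 target genes RRM2B alone had an extreme library, at 23.8 CPM in vehicle replicate 3 against 50.7 to 56.0 CPM in the other vehicle libraries.

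Among other p53 target genes, vehicle replicate 3 was the highest vehicle library for BAX (29.4 CPM), BBC3 (13.3 CPM), PIDD1 (48.8 CPM), XPC (57.0 CPM) and SESN2 (63.1 CPM), and the lowest for TP53INP1 (22.8 CPM), SESN1 (5.96 CPM) and FBXO22 (41.9 CPM). Among regulators of p53 it was the highest for CDKN2A (194 CPM) and the lowest for COP1 (37.3 CPM), RCHY1 (14.2 CPM), ATM (151 CPM) and ATR (101 CPM). Among the cell cycle genes it was the highest for CDC20 (315 CPM) and MYBL2 (261 CPM) and the lowest for BUB1 (169 CPM). In the stress and immediate early lists it was the highest for DDIT3 (28.98 CPM), JUN (134 CPM), EGR1 (38.7 CPM) and IER2 (46.0 CPM) and the lowest for ASNS (50.6 CPM). The other extreme libraries were vehicle replicate 1 for E2F7 (183 CPM) and TP-472 replicate 4 for USP7 (184 CPM), each the highest of its group.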

How the results depend on the processing

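AEN remained higher and FDXR lower past both limits under the 16 alternatives that refit single genes (log2 fold changes 1.29 to 1.38 and −0.96 to −0.70), and MDM2, ZMAT3, RRM2B and TP53I3 kept their direction and stayed uncalled. PHLDA3 reversed, to 0.16, without vehicle replicate 3, and ranged from −0.28 to 0.16 with 1 library left out. BTG2 was called in 3 of 16, each with 1 library left out. With no limit on the fold change, 2418 of all 14073 genes tested were higher and 2684 lower. Of the 9 genes, 2 were then higher (AEN, BTG2) and 2 lower (FDXR, MDM2). In the lists, 5 regulators and 2 genes of the DREAM list were lower and 3 of the integrated stress response higher. Tested against a 1.5-fold change with glmTreat, 529 of all genes were higher and 594 lower, of the 9 genes 1 was higher and 0 lower, so that the call of FDXR ended, and of the lists 5 other p53 target genes were higher and 1 lower, with 0 regulators and 0 DREAM genes lower. The DREAM list also had 0 lower with limma-voom, where 1838 of all genes were lower. With DESeq2, 5 regulators and 2467 of all genes were lower. With any 1 library left out, 1165 to 1785 of all genes were higher and 1321 to 2325 lower (1321 without TP-472 replicate 3, 1345 without TP-472 replicate 2), 1 to 2 of the 9 genes were higher and 1 lower, 7 to 9 other p53 target genes higher and 3 to 5 lower, 1 to 4 regulators lower (1 without TP-472 replicate 2 or 3), 0 to 2 DREAM genes lower, 1 to 3 integrated stress response genes and 3 to 8 immediate early genes higher. The cause of these differences was not tested. With replicate number as a block, 1500 of all genes were higher and 1555 lower, 0 DREAM genes lower, and 1 of the 9 genes in each direction. Same-numbered libraries correlated at −0.055, 0.12, −0.17 and −0.18 in their deviations from the group means. With so few libraries per group these values cannot decide whether same-numbered libraries were handled together, which the labels do not say. GDF15 had only 3 to 29 counts per library, and what limited its detection was not tested.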
